A study of Mus musculus with 3 samples.

Results

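The genes described here make cholesterol and fatty acids in the cell, or regulate the supply of sterol. A list of 35 mouse genes was matched by exact symbol to the gene table of 3 RNA sequencing libraries of C2C12 myotubes. Of these, 34 were found among 24401 loci, and 33 of them had a mean of 1 FPKM or more (fragments per kilobase of transcript and per 1000000 mapped fragments) and were used for ratios. Tm7sf2, a sterol reductase gene, appeared only in a locus shared with Vps51, which stood at 20.1, 19.0 and 16.9 FPKM and was not counted. Just inside the limit lay Abca1, with a mean of 1.76 FPKM, and just outside it Nr1h3, with 0.580 FPKM.

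C2C12 is a mouse myoblast line that fuses into multinucleated muscle fibres when serum is lowered. Both lines were kept in DMEM with 10% fetal bovine serum. Confluent C2C12 cells were then differentiated for 72 hours with insulin at 1 µg/ml and 2% horse serum, in DMEM, and were then given one of 3 media for 24 hours. DMEM alone served as the control. S2-013, a human pancreatic cancer line, had conditioned the second medium for 24 hours. The last medium was conditioned likewise and also held resveratrol, a polyphenol of plants, at 50 µM. Whether control and conditioned media held serum, and in what resveratrol was dissolved, is not stated in the labels. None of the 3 libraries had resveratrol without conditioned medium, so its action alone and its action together with that medium cannot be told apart. Each medium is represented by 1 library, so differences below could not be checked against replicates, and neither an SD nor a test across replicates was possible. The labels call the cells myoblasts, although they were differentiated. Throughout, 3 values of a gene are its FPKM in control first, then conditioned media, then resveratrol in conditioned media.

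Cholesterol is built from acetyl-CoA through mevalonate, farnesyl pyrophosphate, squalene and lanosterol. The transcription factors SREBP-1 and SREBP-2 switch on the genes of this route and of fatty acid synthesis. They are held in the endoplasmic reticulum with their escort SCAP by the INSIG proteins while sterol is plentiful, and are released when it is scarce. Oxysterols such as 25-hydroxycholesterol bind INSIG, and also activate the liver X receptors (LXR), which switch on genes of cholesterol export. In muscle fibres these routes supply membrane lipid, prenyl groups and fatty acids.

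The cultures expressed muscle genes. All 8 myotube markers, among them Acta1, Ckm and Myh3, had means of 1 FPKM or more, and their summed level was 3149, 2875 and 4074 FPKM. They did not share one direction with resveratrol over conditioned media. The authors' deposited table calls Acta1, Myh3, Tnnt3, Myog and Mb higher there, and Ckm, Tnnc2 and Ryr1 lower. The 8 markers of proliferating cells summed to 203, 273 and 50.8 FPKM and were lowest with resveratrol. Adipocyte markers were low: Cfd and Lep were listed at 0 in every library, 1 of 7 reached a mean of 1 FPKM, and none exceeded 3.66 FPKM. Pparg was the only marker of these that the authors tested. Their deposited table calls it higher in conditioned media over control and lower with resveratrol over conditioned media. The part of adipocyte-like cells in the levels of lipid synthesis genes was not tested. Of 5 macrophage markers, 1 had a mean of 1 FPKM or more, Ptprc and Adgre1 were listed at 0 in every library, and the sums were 1.33, 1.98 and 1.95 FPKM. The 4 endothelial markers summed to at most 0.443 FPKM. Fibroblast markers, mostly Col1a1, summed to 932, 1116 and 578 FPKM. They did not share one direction with resveratrol over control. The authors' deposited table calls Col1a1 lower and Dcn higher there, does not call Pdgfra, and did not test Lum and Thy1. The part of unfused or dividing cells in the differences below was not tested, and in these bulk libraries fewer cells of a type and less RNA per cell cannot be told apart. The depth of the libraries is unknown, because FPKM do not keep it. Between 11609 and 12004 loci reached 1 FPKM in a library.

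The members covered a wide range of levels on the FPKM scale, which is per length and allows genes to be compared. Scd2, a stearoyl-CoA desaturase of brain and other tissues, was the most abundant at 582, 807 and 688 FPKM, followed by its paralog Scd1 at 207, 278 and 198 FPKM. Next came Fdps, Hmgcs1 and Insig1, with means of 155, 136 and 102 FPKM. The lowest were Abca1 and Abcg1, the cholesterol exporters, with means of 1.76 and 1.81 FPKM, and Nr1h3. Most members varied little between the media. In 22 of 33 the highest library was less than 1.5 times the lowest, and the median of that ratio, 1.40, was close to the 1.42 found over all 11858 loci with a mean of 1 FPKM or more. It was 2 or more in Ch25h, Abca1 and Insig1 only.

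**Figure D1:**
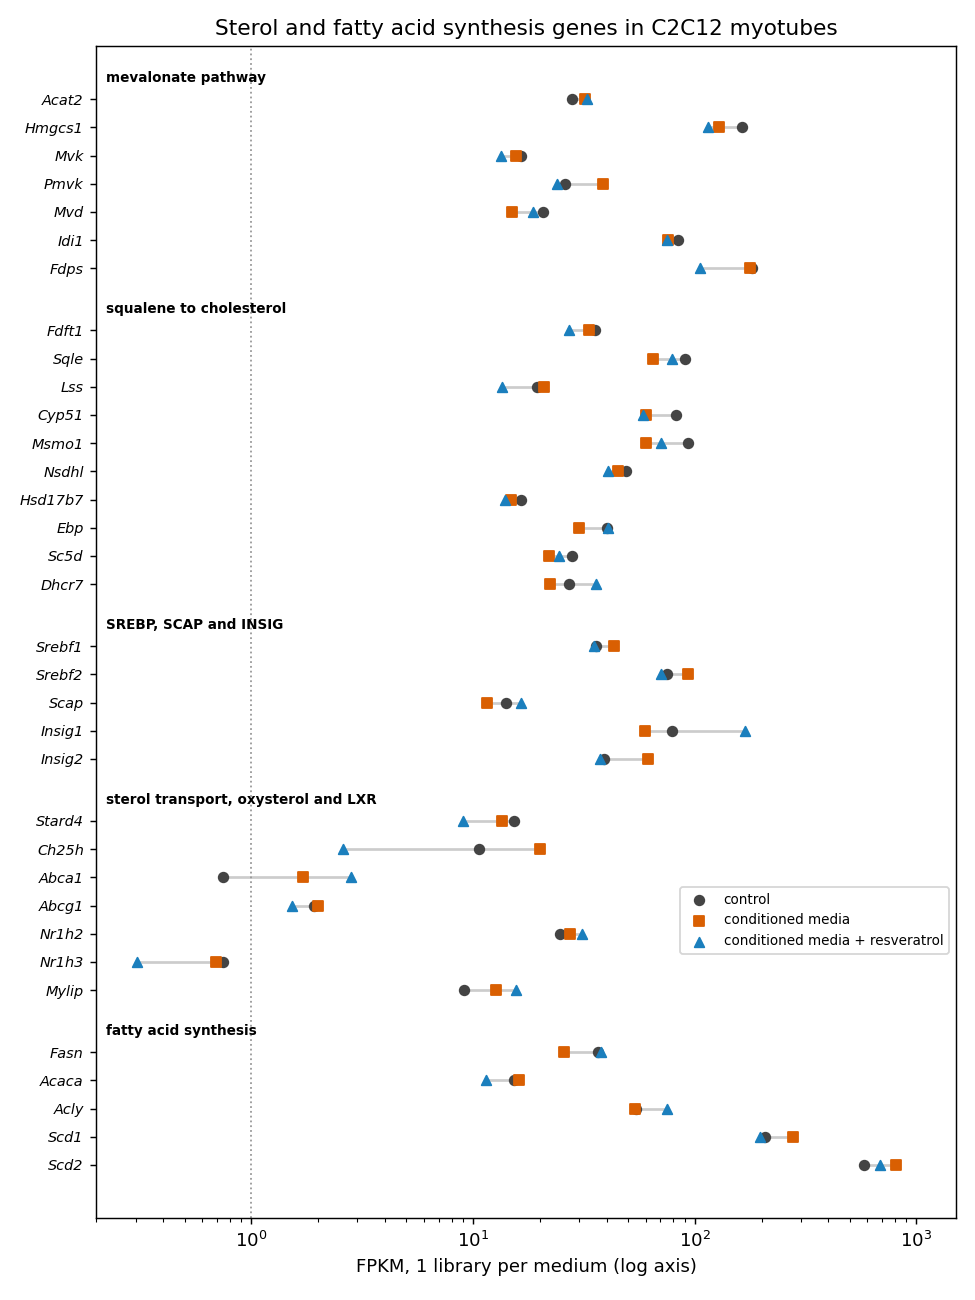
FPKM (log axis) of the 34 genes found, grouped by role, with 1 point for each of the 3 libraries and a grey line joining the lowest and highest. The dotted line marks 1 FPKM. The points of most genes lie close together, while Ch25h spans 2.58 to 20.0 FPKM and Insig1 59.6 to 168 FPKM.

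Promoters are shown for the member with a classical sterol regulatory element and for those that differed most between the libraries. The sequences are the 250 bases before the RefSeq transcription start (GRCm38.p6, the assembly of mm10), on the strand of the gene. Capitals mark a sterol regulatory element core (TCACCCCAC), the CCAAT box bound by NF-Y (CCAAT, or ATTGG on the other strand) and the GC box bound by Sp1 (GGGCGG, or CCGCCC). Hmgcs1 lies at chr13:119690101-119690350 on the plus strand, Insig1 at chr5:28071162-28071411 on the plus strand, Abca1 at chr4:53159896-53160145 on the minus strand and Ch25h at chr19:34475149-34475398 on the minus strand.
Hmgcs1: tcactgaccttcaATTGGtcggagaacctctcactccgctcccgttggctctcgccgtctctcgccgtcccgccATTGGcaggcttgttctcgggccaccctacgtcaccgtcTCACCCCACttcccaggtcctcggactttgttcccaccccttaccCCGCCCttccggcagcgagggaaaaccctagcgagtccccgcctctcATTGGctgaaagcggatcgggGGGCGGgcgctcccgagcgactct
Insig1: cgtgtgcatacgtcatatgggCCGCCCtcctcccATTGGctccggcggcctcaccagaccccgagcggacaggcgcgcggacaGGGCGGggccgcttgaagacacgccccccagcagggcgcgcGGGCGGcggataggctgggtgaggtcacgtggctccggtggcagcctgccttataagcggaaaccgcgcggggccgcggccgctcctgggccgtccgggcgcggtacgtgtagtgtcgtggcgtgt
Abca1: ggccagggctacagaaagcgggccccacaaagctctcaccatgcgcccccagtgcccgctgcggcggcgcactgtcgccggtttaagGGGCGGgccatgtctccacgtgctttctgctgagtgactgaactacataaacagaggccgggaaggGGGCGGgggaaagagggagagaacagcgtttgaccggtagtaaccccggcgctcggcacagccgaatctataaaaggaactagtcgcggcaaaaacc
Ch25h: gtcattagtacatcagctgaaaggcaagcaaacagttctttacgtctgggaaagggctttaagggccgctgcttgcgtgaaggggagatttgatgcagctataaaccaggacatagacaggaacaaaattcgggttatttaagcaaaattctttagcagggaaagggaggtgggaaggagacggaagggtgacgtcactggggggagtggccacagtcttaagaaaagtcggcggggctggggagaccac

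RefSeq promoters, from 250 bases before to 50 after the start, were held for 28 of the 35 genes, as 37 windows. Abcg1, Fdft1, Fdps, Scd1, Scd2, Sqle and Stard4 had no entry. Searched on both strands, TCACCCCAC was found in 1 of the 37 windows, that of Hmgcs1, where it begins 137 bases before the start, and in 0.551% of 32851 mouse promoter windows. A longer form of this element with 1 open base was in none of the 37 and in 0.234% of all windows. CCAAT was found in 22 of the 37 windows (59.5%), and in 37.4% of all windows. GGGCGG was found in 26 of them (70.3%), and in 35.7% of all. The Hmgcs1 and Insig1 promoters held both boxes, that of Abca1 held the GC box alone, and that of Ch25h held neither. A DR4 element, the direct repeat that LXR binds, was in none of the 37 and in 0.0152% of all windows. These are matches of letters, and a motif missing here only means that these letters are not in the window.

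Conditioned media against control asks how pancreatic cancer cell medium changes myotubes. Most enzymes of cholesterol synthesis stood lower in conditioned media by small amounts, while both SREBP genes, Insig2, Ch25h and both desaturases stood higher. No member differed 2-fold, that is by an absolute log2((FPKM + 1)/(FPKM + 1)) of 1 or more: 0 of 33 were higher, where 1.98% of all loci were, and 0 lower, where 0.751% were. At a fold of 1.5, 3 members were higher (7.43% of all loci) and 1 was lower (4.92%), shares near the background. The authors' deposited table, whose Cuffdiff calls compare single libraries, tested 31 members and calls 10 higher and 15 lower, where it calls 25.8% and 29.9% of all tested loci. The median log2 ratio of the members was -0.072, and that of all loci -0.011. It turned to 0.10 when FPKM were rescaled to TPM, which sum to 1000000 in each library, and the median of all loci moved to 0.14.

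**Figure D2:**
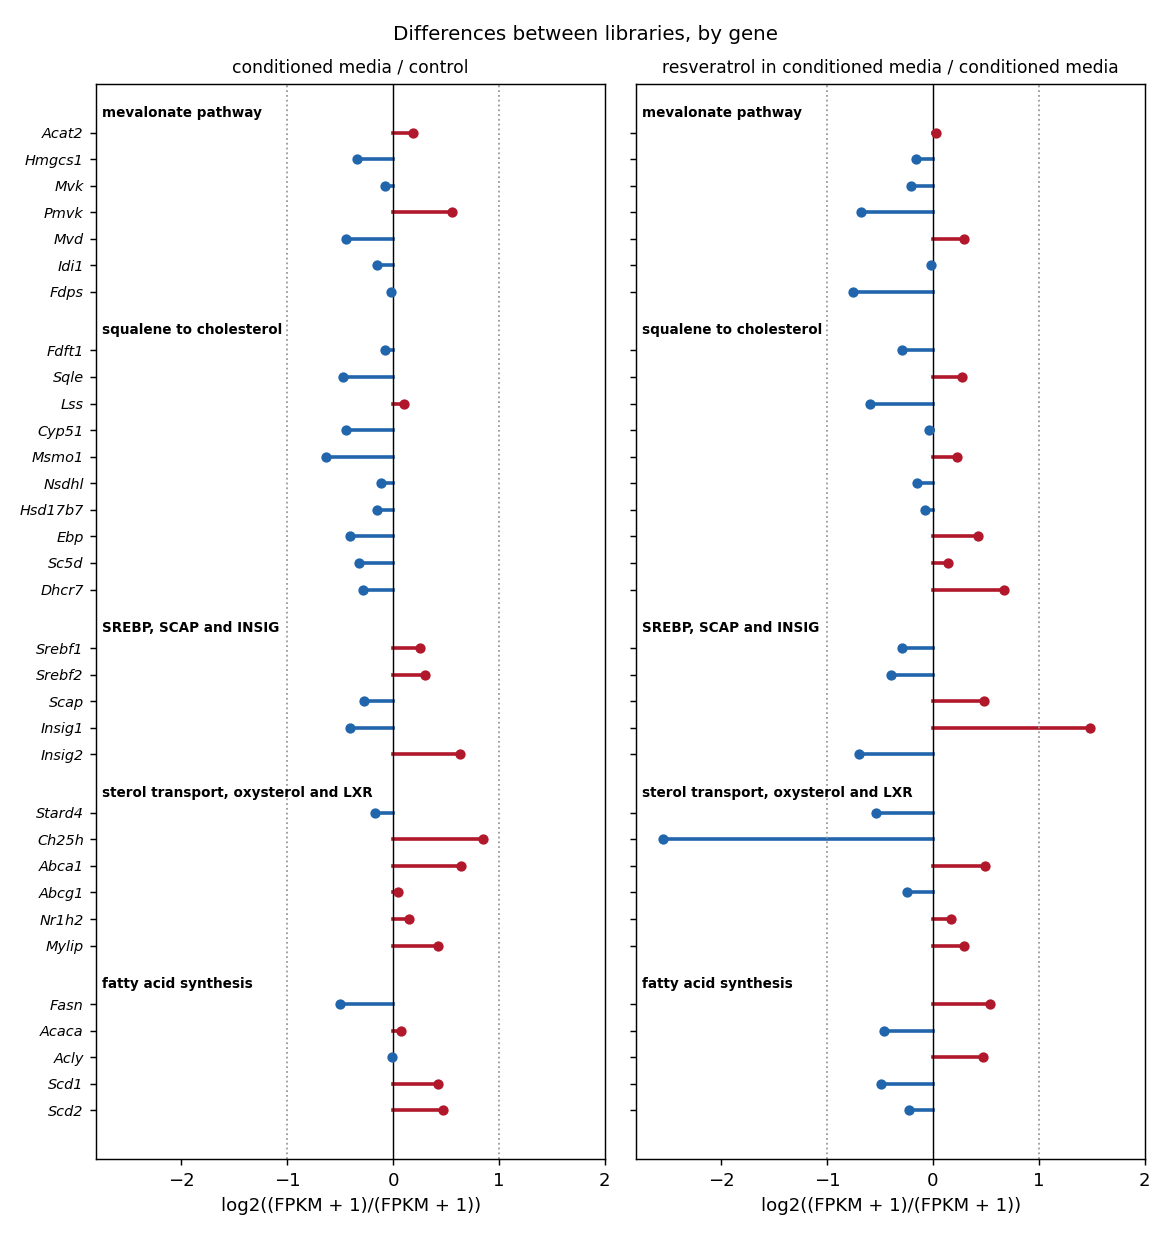
Log2 ratios of FPKM + 1 for the 33 genes with a mean of 1 FPKM or more, with red above 0 and blue below. The left panel sets conditioned media over control and the right panel resveratrol in conditioned media over conditioned media, with dotted lines at a 2-fold difference. No gene passes these lines on the left, and Insig1 (1.48) and Ch25h (-2.55) pass them on the right.

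The mevalonate enzymes opened the route with mixed differences. Hmgcs1, the cytosolic HMG-CoA synthase, stood at 163, 129 and 115 FPKM, so it was highest in control (log2 ratio of conditioned media over control -0.34). Mvd, which decarboxylates mevalonate diphosphate, stood at 20.8, 15.0 and 18.6 FPKM (log2 ratio -0.44). Both are called lower in the authors' deposited table, with a q-value of 0.000148. Here and below, this q-value is given alike to many genes with small and with large differences, so it does not rank them. Pmvk, phosphomevalonate kinase, went the other way at 26.0, 38.7 and 23.8 FPKM (log2 ratio 0.56), with the conditioned media library alone standing high. Acat2, the cytosolic thiolase that makes acetoacetyl-CoA, was at 27.96, 32.0 and 32.7 FPKM, in a span it shares with Acat3, Tcp1 and other loci. Mvk, mevalonate kinase, at 16.4, 15.5 and 13.3 FPKM and Idi1, isopentenyl diphosphate isomerase, at 84.2, 75.9 and 74.9 FPKM had ratios of -0.072 and -0.15 that turned above 0 with TPM.

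The enzymes that make squalene and turn it into cholesterol mostly stood lower. In conditioned media 9 of 10 lay below control (51.3% of all loci did), with a median log2 ratio of -0.30. The authors' deposited table calls 8 of them lower and 0 higher, where it calls 29.9% and 25.8% of all tested loci. With TPM the median was -0.11 and 6 of 10 stayed below 0. Msmo1, the sterol C4-methyl oxidase, stood at 93.7, 60.03 and 70.3 FPKM and had the lowest ratio of all members (-0.63). Sqle, squalene epoxidase, was at 90.6, 64.8 and 78.6 FPKM (log2 ratio -0.48). Cyp51, lanosterol demethylase, was at 82.0, 59.98 and 58.6 FPKM (log2 ratio -0.44). In these genes the control library was the highest of the 3. Ebp, a sterol isomerase, stood at 40.0, 29.9 and 40.6 FPKM, Sc5d, sterol C5-desaturase, at 27.8, 22.02 and 24.4 FPKM, and Dhcr7, which makes cholesterol from 7-dehydrocholesterol, at 27.2, 22.1 and 35.7 FPKM. These had log2 ratios of -0.41, -0.32 and -0.28, with the conditioned media library the lowest. Nsdhl and Hsd17b7, which act with Msmo1 in removing the C4 methyl groups, differed less, at 49.1, 45.2 and 40.8 FPKM and 16.5, 14.8 and 14.0 FPKM, and their ratios over control turned above 0 with TPM. Fdft1, squalene synthase, at 35.3, 33.5 and 27.1 FPKM and Lss, lanosterol synthase, at 19.4, 20.9 and 13.5 FPKM are not called between control and conditioned media in the authors' deposited table. Fdft1 shares its span with Ctsb and Lss with a RIKEN gene model.

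Across the whole route, 14 of 17 synthesis enzymes were lower in conditioned media than in control (82.4%, against 51.3% of all loci), with a median log2 ratio of -0.15. With TPM 9 of 17 stood above 0 and the median was 0.031, where that of all loci was 0.14. With log2 ratios centred on the median of all loci, 14 of 17 stayed below 0, with a median of -0.14. The summed FPKM of the 17 enzymes were 1001, 858 and 787. The control library was the highest in 12 of the 17, where it was the highest for 34.2% of all loci. That count was 13 when FPKM were rescaled over loci longer than 200 bases and 4 with TPM, so the count rests on the scaling between libraries. The share of all loci under these scalings is not given here. Rescaled over loci longer than 200 bases, the median log2 ratio of conditioned media over control was -0.24 for the 17 enzymes and -0.096 for all loci.

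Of the 5 regulators, 3 stood higher and 2 lower in conditioned media than in control. Srebf2, the gene of the main activator of cholesterol synthesis, stood at 75.2, 93.1 and 70.3 FPKM, and Srebf1 at 35.9, 43.0 and 34.9 FPKM. Both were highest in conditioned media, with log2 ratios of 0.30 and 0.26 over control. Scap was at 14.1, 11.5 and 16.5 FPKM, lowest in conditioned media (log2 ratio -0.27). Insig1, itself a known SREBP target, was at 79.1, 59.6 and 168 FPKM (log2 ratio -0.40 for conditioned media over control), and Insig2, which is made from a separate gene, at 39.1, 61.2 and 37.3 FPKM (log2 ratio 0.63). All 5 are called in the authors' deposited table, each with a q-value of 0.000148. Srebf1 and Srebf2 each hold microRNA genes on their own strand (Mir33 in Srebf2), and the span of Srebf1 is also given to Rai1.

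Of the genes for oxysterol and sterol movement, 5 of 6 stood higher in conditioned media (6 with TPM, 4 when rescaled over loci longer than 200 bases), where 48.7% of all loci did, and the median log2 ratio was 0.29. Ch25h makes 25-hydroxycholesterol from cholesterol and stood at 10.7, 20.0 and 2.58 FPKM, with the highest log2 ratio of FPKM + 1 among the members in this comparison (0.85; its plain FPKM ratio was 1.87). Abca1, the exporter of cholesterol to lipoprotein particles, stood at 0.744, 1.72 and 2.82 FPKM. Its FPKM ratio in conditioned media over control was 2.30, which the pseudocount of 1 brings to a log2 ratio of 0.64. With a pseudocount of 0.1 it passed the 2-fold rule. The authors' deposited table did not test it there. Mylip, a ubiquitin ligase that LXR induces and that degrades lipoprotein receptors, was at 9.12, 12.6 and 15.7 FPKM (log2 ratio 0.43). Abca1 and Mylip were both lowest in control and highest with resveratrol, whereas Ch25h was highest in the middle library. Nr1h2, which encodes LXR-beta, was at 24.6, 27.5 and 31.0 FPKM, and Nr1h3, which encodes LXR-alpha, at 0.744, 0.693 and 0.305 FPKM. Abcg1, a partner exporter, was at 1.91, 2.00 and 1.52 FPKM and was not tested by the authors in any comparison. Abcg1 also holds a small RNA gene on its strand. Stard4, a carrier of sterol between membranes, stood at 15.2, 13.5 and 8.98 FPKM.

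Fatty acid synthesis genes were divided. Fasn, fatty acid synthase, stood at 36.6, 25.6 and 37.6 FPKM, lowest in conditioned media (log2 ratio -0.50). Scd1 and Scd2, with the values given above, were highest there (log2 ratios 0.42 and 0.47). Acly, which makes cytosolic acetyl-CoA from citrate, was at 54.2, 53.9 and 75.3 FPKM, and Acaca, acetyl-CoA carboxylase, at 15.3, 16.1 and 11.4 FPKM. These had ratios of -0.0083 and 0.071, which turn sign with the scaling, and neither is called between control and conditioned media in the authors' deposited table. Acly and Scd2 each hold a microRNA gene on their own strand (Mir7116 and Mir5114).

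Resveratrol in conditioned media against conditioned media asks what the compound changed. Insig1 and Ch25h stood far from the other members: Insig1 was 2.82-fold higher and Ch25h 7.73-fold lower. These folds, and others written as a fold for a single gene, are plain FPKM ratios, whereas log2 ratios are of FPKM + 1 and so smaller in size for low genes. Insig1 (chromosome 5, 28071373 to 28078664 of mm10) had a log2 ratio of 1.48, and of 11858 loci 43 had a higher one. Ch25h (chromosome 19, 34473784 to 34475135) had a log2 ratio of -2.55, and 20 loci had a lower one. These were the 1 member higher and the 1 member lower by the 2-fold rule, where 1.53% and 4.97% of all loci were. At a fold of 1.5, 2 members were higher (7.59% of all loci) and 5 lower (12.6%), so the counts lie near the background. The authors' deposited table calls 12 higher and 15 lower of 32 tested, where it calls 34.1% and 29.5% of all tested loci. The median over the members was -0.075, against 0.025 over all loci.

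**Figure D3:**
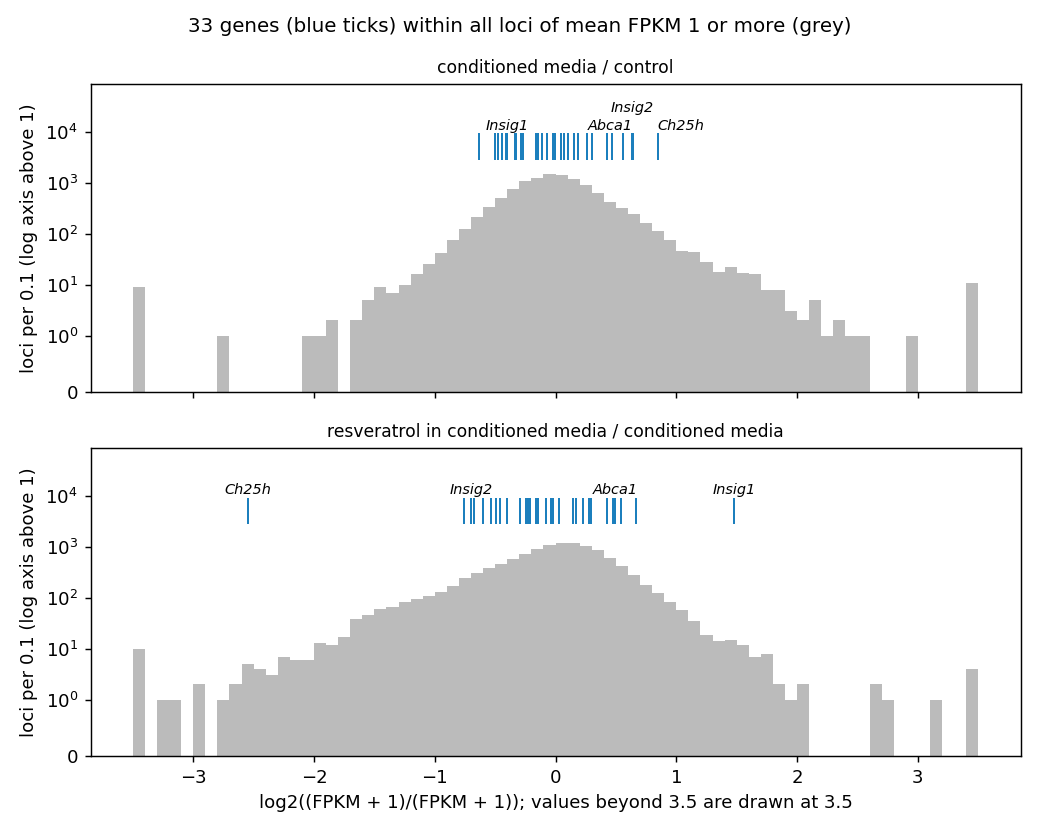
Number of loci per 0.1 of log2 ratio (log axis above 1) among all loci with a mean of 1 FPKM or more, with blue ticks for the 33 genes. The upper panel sets conditioned media over control and the lower panel resveratrol in conditioned media over conditioned media. In the lower panel Ch25h lies at -2.55 and Insig1 at 1.48, outside the other ticks.

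Insig1 and Insig2 differed in opposite directions. With resveratrol Insig1 was the highest of its 3 values and Insig2 was 1.64-fold lower than in conditioned media (log2 ratio -0.70), at about its control level. Over the processing alternatives the log2 ratio of Insig1 ranged from 1.42 to 1.49 and that of Insig2 from -0.77 to -0.65. Scap, the binding partner of INSIG, stood higher (log2 ratio 0.48), and Srebf2 and Srebf1 lower (log2 ratios -0.40 and -0.29). All are called in the authors' deposited table with a q-value of 0.000148.

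The synthesis enzymes did not share one direction with resveratrol. Of 17, 7 stood above and 10 below conditioned media, where 47.4% of all loci lay below, with a median of -0.034. Fdps, which makes farnesyl pyrophosphate for sterols and prenyl groups, stood at 181, 178 and 105 FPKM (log2 ratio -0.76). The control and conditioned media libraries lay close together and the resveratrol library apart. Pmvk (log2 ratio -0.68) and Lss (log2 ratio -0.60) were also lower past 1.5-fold, and Fdps holds a small RNA gene on its strand. Late steps went the other way, with Dhcr7 1.61-fold higher (log2 ratio 0.67) and Ebp 1.36-fold higher (log2 ratio 0.43). Sqle, Msmo1 and Mvd, which were lower in conditioned media, had ratios of 0.27, 0.22 and 0.29 with resveratrol and stayed below control, Mvd not so with TPM. Hmgcs1, Cyp51 and Idi1 had ratios of -0.16, -0.034 and -0.018, with Cyp51 (q-value 0.490) and Idi1 (q-value 0.817) not called in the authors' deposited table.

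Among the genes for oxysterols and export, Ch25h stood at 2.58 FPKM with resveratrol against 20.0 FPKM without it, and so below its control value of 10.7 FPKM. The 8 markers of proliferating cells also stood lower with resveratrol, from 273 to 50.8 FPKM in sum. The sum of the fibroblast markers, which is mostly Col1a1, went from 1116 to 578 FPKM. The part of such cells in the difference of Ch25h was not tested. Over the processing alternatives the log2 ratio of Ch25h ranged from -2.90 to -1.72. Abca1 was higher (log2 ratio 0.49) and Mylip too (log2 ratio 0.29), both called in the authors' deposited table, while Stard4 was lower (log2 ratio -0.53). In fatty acid synthesis, Fasn and Acly were higher (log2 ratios 0.54 and 0.47), and Acaca, Scd1 and Scd2 were lower (log2 ratios -0.46, -0.49 and -0.23). All 5 are called in the authors' deposited table.

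Resveratrol in conditioned media against control uses the same libraries as the comparisons above and adds no independent evidence. By the 2-fold rule 2 members were higher, Insig1 (log2 ratio 1.08) and Abca1 (log2 ratio 1.13), where 3.60% of all loci were, and 1 was lower, Ch25h (log2 ratio -1.70), where 5.25% were. The ratio of Insig1 was 0.93 after rescaling over loci longer than 200 bases, and that of Abca1, a low gene, was 0.68 with TPM and 0.45 at a pseudocount of 5. At a fold of 1.5, 3 members were higher (11.4% of all loci) and 3 lower (14.0%). Added to those named were Mylip on the higher side (log2 ratio 0.72) and Fdps and Stard4 on the lower side (log2 ratios -0.78 and -0.70). The authors' deposited table calls 9 higher and 17 lower of 32 tested, where it calls 34.1% of all tested loci in each direction. Of the 17 synthesis enzymes 14 stood below control, where 49.9% of all loci did, with a median of -0.22. With TPM 10 did, with a median of -0.036. With TPM the median of all loci in this comparison was 0.14.

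Ratios of 2 genes within a library do not depend on the scaling between libraries. These pairs were chosen after their values were seen. Insig1 stood at 2.02 times Insig2 in control, 0.973 times in conditioned media and 4.50 times with resveratrol. The SREBP genes held their proportion, with Srebf2 at 2.097, 2.16 and 2.01 times Srebf1. Scd2 stood at 2.81, 2.90 and 3.48 times Scd1, and Fasn at 2.40, 1.59 and 3.30 times Acaca. Abca1 went from 0.390 times Abcg1 in control to 0.860 in conditioned media and 1.85 with resveratrol, although both were low and their precision is unknown. Nr1h2 stood at 33.1, 39.7 and 102 times Nr1h3, which lay under 1 FPKM in every library, and this pair is not drawn. The INSIG, exporter and Fasn to Acaca pairs differed more between the media than the SREBP pair did.

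**Figure D4:**
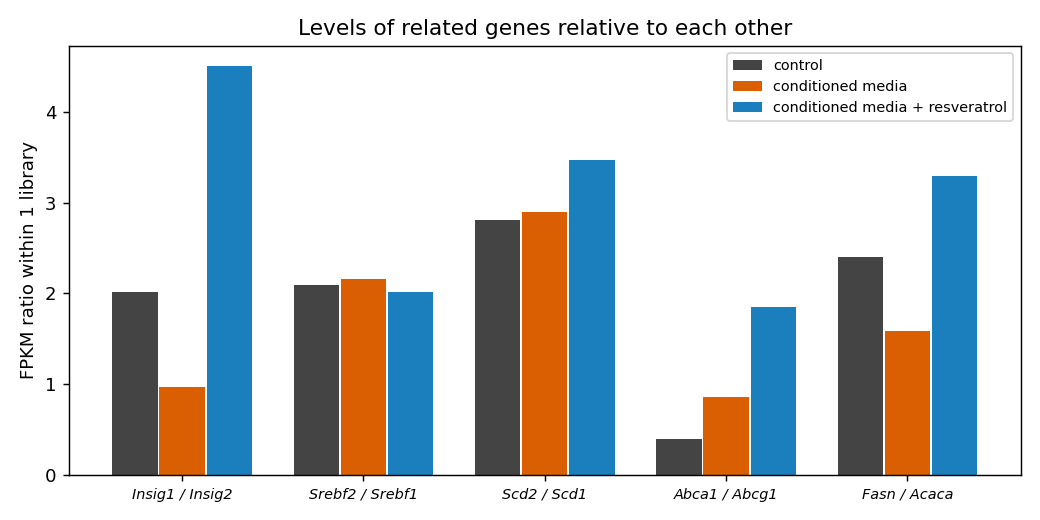
FPKM of 1 gene divided by that of its paralog or partner within each library, as bars from 0 (1 library per bar, no error can be given). The Srebf2 to Srebf1 bars lie between 2.01 and 2.16, whereas Insig1 to Insig2 runs from 0.973 in conditioned media to 4.50 with resveratrol.

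Another 48 genes of these routes were listed, of which 41 were measured. In conditioned media against control the authors' deposited table calls 18 of them higher and 14 lower, and with resveratrol against conditioned media 14 higher and 16 lower of 40 tested. Of all tested loci the authors' deposited table calls 25.8% higher and 29.9% lower in the first comparison, and 34.1% and 29.5% in the second. Of 13 further genes of sterol synthesis and uptake, Vldlr, a lipoprotein receptor that MYLIP degrades, differed most. It stood at 5.84, 13.9 and 3.45 FPKM, with log2 ratios of 1.12 in conditioned media over control and -1.74 with resveratrol over conditioned media, so it was highest in conditioned media, like Ch25h. Tmem97, the sigma-2 receptor, was at 55.7, 52.2 and 27.9 FPKM, with the resveratrol library alone standing low, as for Fdps. Tmem97 shares its span with Ift20. Among 6 genes of SREBP processing and of INSIG-linked degradation, Mbtps1, the site-1 protease that cleaves SREBP, stood at 37.0, 33.3 and 45.1 FPKM, and Rnf139, the ligase TRC8, at 24.1, 21.7 and 16.6 FPKM. Mbtps1 was lowest in conditioned media and highest with resveratrol, as Scap and Insig1 were, although with TPM it was lowest in control.

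Of 15 further genes of fatty acid synthesis and desaturation, 11 stood higher in conditioned media than in control, as did 48.7% of all loci, with a median log2 ratio of 0.22. The authors' deposited table calls 11 of them higher and 4 lower, beside 25.8% and 29.9% of all tested loci. Slc25a1, the mitochondrial citrate carrier, was at 36.6, 72.8 and 57.0 FPKM and Acss2, which makes acetyl-CoA from acetate, at 5.61, 12.7 and 11.1 FPKM (log2 ratios 0.97 and 1.05). In both, each conditioned media library stood above control. Elovl6, a fatty acid elongase, was at 8.70, 11.7 and 4.67 FPKM and was lower with resveratrol (log2 ratio -1.17). The 7 measured partners and targets of LXR all lay above 0 in conditioned media over control (median log2 ratio 0.32), 6 of them when rescaled over loci longer than 200 bases, while 48.7% of all loci lay above 0. The authors' deposited table calls 4 of them higher and 0 lower, against the same 25.8% and 29.9%. With resveratrol over conditioned media, 4 of the 7 lay above 0 and 3 below, where 52.5% of all loci lay above 0. Pltp, the phospholipid transfer protein, stood at 26.3, 37.4 and 50.5 FPKM, in the same order of libraries as Abca1 and Mylip. Apoe, the apolipoprotein that carries exported cholesterol, had this order too, at 3.22, 4.71 and 8.91 FPKM, and was higher with resveratrol than in conditioned media alone (log2 ratio 0.80). Arl4c, a small GTPase, stood at 17.8, 22.5 and 12.7 FPKM and did not share that order.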

How the data were processed

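Total RNA, isolated by TRIzol lysis and column purification, went into Illumina TruSeq libraries (kit version 2), per the labels' protocols. The genome build was mm10 per the submitters' processing notes, which also name Cuffdiff 2.2.1.3 and Cufflinks 2.2.1.0, the aligners Bowtie and TopHat2 2.1.0, and for trimming and quality Trim Galore 0.4.3.1 and FastQC 0.69. The gene annotation, the strand setting and how libraries were scaled, not given in the sources used here, could each change the FPKM. The deposited table holds the authors' FPKM per locus. Its log2 fold changes, test statistic (a score), p-values and q-values are also the authors' own, as deposited, from 1 library per condition. Groups follow the treatment label of each library, and libraries were matched to the table by the numbers that it gives them. Each gene took its locus with the highest mean FPKM, and log2 ratios used a pseudocount of 1 in Python 3.11.15 (pandas 2.3.3, numpy 2.4.6). Starts in the table were read as counting from 0 and printed plus 1. Small RNA genes were found in GENCODE M21. All members are named, and up to 3 genes from each of 4 further lists by largest absolute ratio in the first 2 comparisons. Of these, 2 are not reported here. Members, lists and motifs were chosen with earlier results of these data known. Alternatives changed the pseudocount, the filter on low values, the scaling, the choice of locus and the call rule.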

Additional observations from a re-analysis of the deposited data

How the results depend on the processing

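With 1 library per medium and unknown depth, precision is not known for any gene. No paired analysis was possible because each group holds 1 library. FPKM summed to 3384770, 2953954 and 2956883, of which 83.0%, 79.3% and 78.4% lay in loci of 200 bases or less, and rescaling to TPM follows those loci. In conditioned media over control 10 of 33 members changed sign under at least 1 alternative, in resveratrol over conditioned media 1 of 33 (Acat2), and in resveratrol over control 10 of 33. Each of these sign changes came with an alternative of the scaling, and none with the pseudocount, the filter or the choice of locus. Why the scalings disagree was not tested.

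For conditioned media over control, counts of higher and lower members were 3 and 1 at a fold of 1.5 and 10 and 15 by the authors' deposited calls. The higher count was 1 at a pseudocount of 0.1, which is Abca1, and the median was 0.10 with TPM. For resveratrol over conditioned media the counts were 2 and 5 at a fold of 1.5 and 12 and 15 by the authors' deposited calls. For resveratrol over control they were 3 and 3 at a fold of 1.5 and 9 and 17 by the authors' deposited calls. There the higher count was 1 at a pseudocount of 5, at a mean FPKM of 5 or more, with TPM and over loci longer than 200 bases. Its median was 0.032 with TPM and -0.30 over loci longer than 200 bases. Under the other alternatives tried, the medians over the members moved by less than 0.1 and kept their sign, which does not hold for the medians of smaller lists.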
